A study of Mus musculus with 6 samples.

Results

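The genes described here are 9 transcription factor genes: the 5 AP-2 genes Tfap2a, Tfap2b, Tfap2c, Tfap2d and Tfap2e, and Ptf1a, Barhl2, Neurod2 and Ebf1. Most of them are known from amacrine cells, the inhibitory interneurons of the inner retina, while Tfap2d and Tfap2e belong to the set as members of the AP-2 family. They were picked by symbol out of 24346 rows in each file, and all 9 had a row. The 9 symbols were chosen by their levels and by the difference between the groups in an earlier look at the same files, in which Tfap2b was among the rows of smallest p. Their levels and group differences are therefore a description, and the p-values from the fit over all rows only place them among the other genes.

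The samples are 6 mouse libraries labelled brain, embryonic day 17.5. The 3 labelled DKO come from mice named as miR-124a-1/2 double knockouts, and the 3 labelled control come from miR-124a-1+/- mice, so both groups carry a lost miR-124a-1 allele and neither is wild type. The labels name no line background, litter, batch or sex, give no state of miR-124a-3, and do not say what part of each gene was removed. Nothing in them says how separate the 3 samples of a group are beyond the word triplicate, so p-values measure the spread between these samples, which may be partly technical. Values are FPKM, which divide fragment counts by transcript length and by the mapped total, so levels can be compared between genes per length.

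Transcripts of the retina were abundant in all 6 libraries and several factors of the embryonic brain had none. Nrl, a transcription factor of rod photoreceptors, lay at 593 to 679 FPKM. The cortical factors Emx1 and Emx2 and the hindbrain factors Atoh1 and Lmx1a were listed at 0 in all 6. Other markers of cortex, cerebellum and midbrain were present: Fezf2 lay at 6.66 to 9.08, Zic1 at 1.76 to 3.25 and Tbr1 at 0.741 to 1.34 FPKM. Under 1 FPKM in every library were 3 of 7 cortex markers and 6 of 8 markers of cerebellum and midbrain. The host transcript of miR-124a-1, Mir124a-1hg, lay at 464 to 510 FPKM in the libraries labelled DKO and at 420 to 528 FPKM in those labelled control. That of miR-124a-2, listed as 2610100L16Rik, lay at 69.9 to 98.0 against 80.3 to 115 FPKM. The host transcripts thus do not show the deletions, the retinal transcripts go against the labelled tissue, and every direction below is that of the libraries as labelled. Short RNA rows took 6.36% of the summed FPKM in control replicate 3 and 1.76% to 3.13% in the others. FPKM carry no totals, but the spacing of low values put the depth of the libraries at 0.956 to 1.24 of that of DKO replicate 1.

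AP-2 proteins bind GC-rich DNA as dimers, through a basic region and a helix-span-helix domain that the family shares. In the developing retina the bHLH factor PTF1A acts in precursors that become amacrine and horizontal cells, and AP-2 alpha and AP-2 beta are made downstream of it in the same cells, where they remain as markers of mature amacrine neurons. BARHL2, NEUROD2 and the EBF proteins act later, in subsets of amacrine cells and also in ganglion cells. The AP-2 genes are also active outside the retina, above all in surface epithelium and neural crest. Of 8 markers of surface epithelium and cornea, 7 stayed under 1 FPKM in every library and Krt5 and Krt14 were listed at 0. All 7 markers of neural crest and mesenchyme stayed under 1 FPKM. Amacrine class markers were present throughout: all 25 genes of that list passed the filter on low values, up to 341 FPKM for Calb2, which encodes calretinin.

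The 9 genes lie on 6 chromosomes of GRCm38, the assembly of mm10, by GENCODE M21. Tfap2d (chromosome 1, 19103022 to 19166346) and Tfap2b (chromosome 1, 19208914 to 19238576) are neighbours on the plus strand, 42.6 kb apart. Tfap2a lies on chromosome 13 (40715302 to 40738376), Tfap2c on chromosome 2 (172549593 to 172558622) and Tfap2e on chromosome 4 (126716006 to 126736240). Ptf1a lies on chromosome 2 (19445663 to 19447501), Barhl2 on chromosome 5 (106452523 to 106458166), Neurod2 on chromosome 11 (98325415 to 98329648) and Ebf1 on chromosome 11 (44617317 to 45008091). Tfap2a is overlapped by antisense transcripts, of which Gm26688 had a row, at 0.627 to 1.12 FPKM. Whether the authors' counting used strand is not given in the sources used here, so reads of Tfap2a and its antisense partners may not be told apart.

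The 3 promoters below belong to AP-2 genes whose values lay higher in the libraries labelled DKO (Tfap2b, Tfap2a and Tfap2e), and are shown for the letters at which family members and bHLH factors could bind. Each window runs from 250 bases before to 50 bases after a gene start listed in RefSeq (GRCm38.p6), 5′ to 3′ on the gene's strand, and capitals mark the E-box CANNTG, the core letters bound by bHLH factors such as PTF1A and NEUROD2. The Tfap2b and Tfap2a windows lie inside the gene bounds given above, so their listed starts are internal to the GENCODE genes. Another Tfap2a window, upstream of the one shown and also internal, is chr13:40734871-40735170.

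Tfap2b, chr1:19211804-19212103, plus strand: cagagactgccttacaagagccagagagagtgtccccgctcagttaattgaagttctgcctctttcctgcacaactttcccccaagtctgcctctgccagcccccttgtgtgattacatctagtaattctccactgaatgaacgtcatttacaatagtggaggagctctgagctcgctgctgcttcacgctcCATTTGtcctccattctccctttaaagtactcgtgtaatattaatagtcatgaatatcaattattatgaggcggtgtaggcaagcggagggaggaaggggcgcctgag
Tfap2a, chr13:40733746-40734045, minus strand: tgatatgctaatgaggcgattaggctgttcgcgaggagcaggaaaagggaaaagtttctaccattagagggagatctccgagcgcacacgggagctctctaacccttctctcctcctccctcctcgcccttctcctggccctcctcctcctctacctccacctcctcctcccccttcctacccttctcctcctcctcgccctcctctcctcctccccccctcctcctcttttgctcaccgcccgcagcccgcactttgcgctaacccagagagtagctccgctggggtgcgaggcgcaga
Tfap2e, chr4:126736220-126736519, minus strand: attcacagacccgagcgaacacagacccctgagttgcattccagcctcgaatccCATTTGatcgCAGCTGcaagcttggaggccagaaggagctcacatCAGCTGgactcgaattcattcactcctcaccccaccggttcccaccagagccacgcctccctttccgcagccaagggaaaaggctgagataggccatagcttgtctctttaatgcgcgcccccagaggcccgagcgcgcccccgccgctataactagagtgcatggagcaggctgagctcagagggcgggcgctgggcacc

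The Tfap2b window holds 1 E-box, CATTTG, which begins 58 bases before the listed start. The Tfap2e window holds 3, CATTTG at 196, CAGCTG at 186 and CAGCTG again at 151 bases before the start, and the Tfap2a window holds none. For the 8 of the 9 genes with an entry there are 12 windows, of which 6, each of a different gene, held an E-box CANNTG, against 72.3% of all 32851 windows of this length. The form CAGCTG, which is contained in CANNTG, was found among the 9 genes in Tfap2e alone, and 16.3% of all windows hold it. The AP-2 palindrome GCCNNNGGC was found in 1 of the 12 windows, that of Ptf1a (chr2:19445413-19445712, plus strand), as GCCAGCGGC beginning 18 bases after the listed start, against 16.6% of all windows. The EBF letters CCCNNGGG occur once in the second window of Tfap2a (chr13:40734871-40735170, minus strand) and once in that of Neurod2 (chr11:98329596-98329895, minus strand), against 13.7% of all windows. These motifs read the same on both strands, and a match is a description of letters, not of binding. Tfap2c has no entry in the promoter table.

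The 7-base word GTGCCTT, the match to positions 2 to 8 of miR-124-3p, was absent from the longest annotated 3′ untranslated region (UTR) of all 9 genes. These regions ran from 168 bases in Tfap2d to 4229 bases in Tfap2b, with 1813 in Tfap2a, 1246 in Tfap2c, 507 in Tfap2e and 3343 in Ebf1. Among 12168 tested genes for which GENCODE M21 gives such a region, of median length 1258 bases, 16.1% hold the word. Its absence says only that these letters are not in these regions.

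Tfap2b was by far the most abundant of the 9 genes. It measured 61.0, 60.9 and 60.8 FPKM in control replicates 1 to 3 and 70.4, 74.1 and 73.9 FPKM in DKO replicates 1 to 3. The 3 control values were nearly the same and all 3 DKO values stood above them. Tfap2b encodes AP-2 beta, a marker of most amacrine cells, and its mean over the 6 libraries exceeded that of 91.8% of the tested rows. The group means were 72.8 ± 2.08 and 60.9 ± 0.127 FPKM (SD, n = 3 each), 19.5% higher in the libraries labelled DKO.

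Tfap2a, which encodes AP-2 alpha and is made in amacrine and horizontal cells, was the second most abundant. It measured 14.5, 19.0 and 16.3 FPKM in the control libraries and 20.3, 20.0 and 21.8 FPKM in the DKO libraries. The groups did not overlap, although control replicate 2 came close to the lowest DKO value. The means were 20.7 ± 0.981 against 16.6 ± 2.28 FPKM (SD, n = 3 each), 24.9% higher.

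Tfap2c, which encodes AP-2 gamma, found in a part of the amacrine cells, measured 7.52, 7.98 and 7.23 FPKM in the control libraries and 9.89, 8.29 and 9.74 FPKM in the DKO libraries. DKO replicate 2 lay close above the highest control, and the other DKO libraries stood clear of it. The means were 9.31 ± 0.885 against 7.58 ± 0.379 FPKM (SD, n = 3 each), 22.8% higher. Tfap2e, which encodes AP-2 epsilon, a factor known mainly from the olfactory system, measured 1.23, 2.84 and 2.52 FPKM in the control libraries and 3.31, 3.01 and 3.24 FPKM in the DKO libraries. Its groups did not overlap either, but control replicate 1 stood far below the other controls. The means were 3.19 ± 0.157 against 2.19 ± 0.852 FPKM (SD, n = 3 each).

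Tfap2d was the 1 AP-2 gene whose groups overlapped. This gene for AP-2 delta, known in the retina from ganglion cells, measured 2.78, 2.95 and 3.12 FPKM in the control libraries and 3.51, 3.19 and 2.80 FPKM in the DKO libraries. Its means were 3.17 ± 0.355 and 2.95 ± 0.172 FPKM (SD, n = 3 each). Its neighbour Tfap2b thus had fully separated values while Tfap2d did not; the difference between the 2 genes was not tested.

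The other 4 factors showed no such separation. Ptf1a, the precursor factor, was listed at 0 in 5 libraries and at 0.0898 FPKM in DKO replicate 3, and its antisense partner Ptf1aos was listed at 0 in all 6. Barhl2, a homeobox factor of amacrine and ganglion cell subtypes, measured 12.6, 11.5 and 10.8 FPKM in the control libraries and 9.70, 11.2 and 10.5 FPKM in the DKO libraries. Its groups overlapped, with means of 10.4 ± 0.737 in DKO and 11.7 ± 0.907 FPKM in control (SD, n = 3 each). Neurod2, a bHLH factor, measured 5.22, 5.72 and 6.29 FPKM in the control libraries and 4.94, 5.34 and 5.13 FPKM in the DKO libraries. The highest DKO value lay above the lowest control value, and the means were 5.14 ± 0.197 and 5.74 ± 0.533 FPKM (SD, n = 3 each). Ebf1, a helix-loop-helix factor of the EBF family, measured 7.20, 7.32 and 7.31 FPKM in the control libraries and 6.67, 7.31 and 7.91 FPKM in the DKO libraries, so that the DKO libraries lay on both sides of tightly grouped controls.

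**Figure D1:**
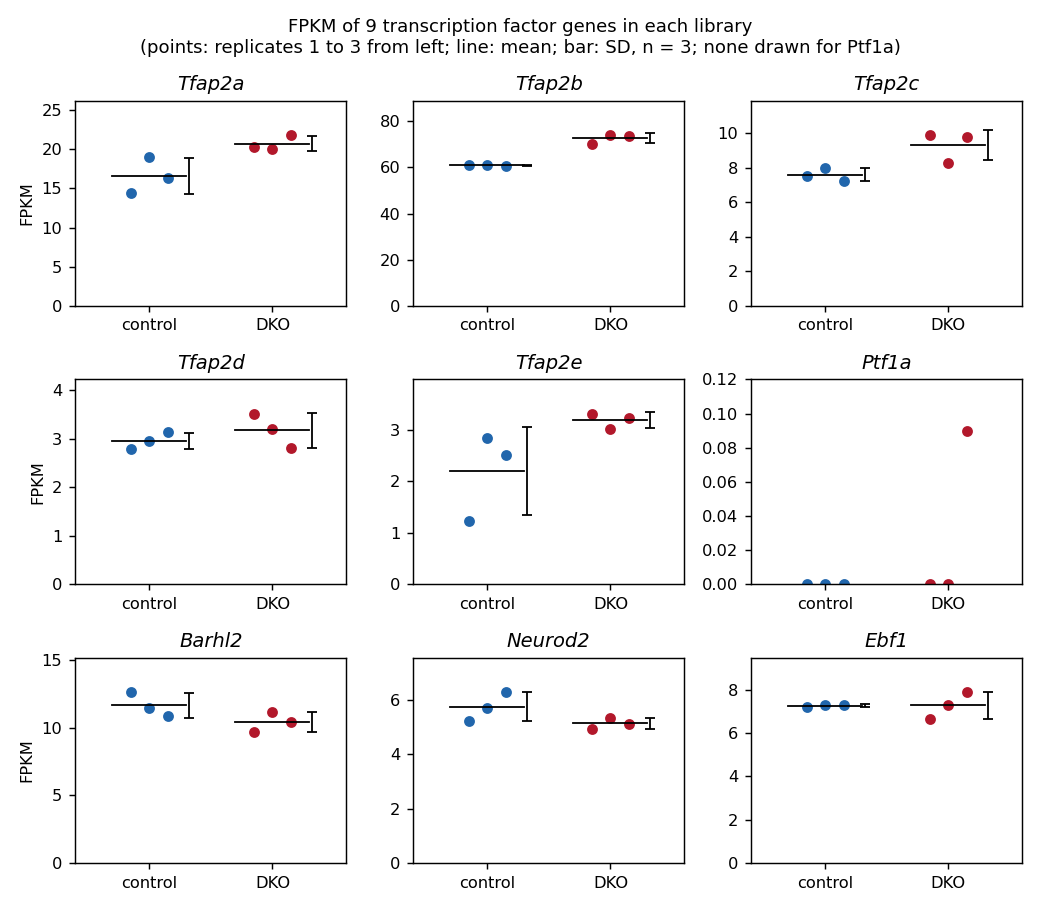
FPKM of each of the 9 genes in the 3 control (blue) and 3 DKO (red) libraries, with the mean as a line and the SD as a bar (n = 3); Ptf1a, listed at 0 in 5 libraries, has neither. Every axis starts at 0, and Tfap2a, Tfap2b, Tfap2c and Tfap2e are the genes whose red points all lie above the blue ones.

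By mean FPKM the order was Tfap2b, Tfap2a, Barhl2, Tfap2c, Ebf1, Neurod2, Tfap2d, Tfap2e and Ptf1a. Barhl2 and Tfap2c, Tfap2c and Ebf1, and Tfap2d and Tfap2e had overlapping ranges, with the first of each pair higher in 5 of 6 libraries. The other neighbours in this order did not overlap over the 6 libraries. Within the AP-2 family Tfap2b made up 65.0% to 70.1% of the summed FPKM and Tfap2a 16.6% to 20.3%. Tfap2c took 7.63% to 9.20%, Tfap2d 2.52% to 3.47% and Tfap2e 1.41% to 3.09%. Each of these 5 shares overlapped between the groups, while the sum itself did not: it was 87.0, 93.7 and 90.0 FPKM in the control libraries and 107, 109 and 111 FPKM in the DKO libraries. The ratio of Tfap2b to Tfap2a, 3.52 ± 0.169 in DKO and 3.72 ± 0.506 in control (SD, n = 3 each), overlapped as well. Tfap2b made up most of the sum and was chosen with its group difference known, so nothing is read from the separation of the sum.

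None of the 8 tested genes passed in the comparison of DKO with control. The fit was made with limma on log2(FPKM + 1) over the 13215 rows whose mean reached 1 FPKM. In it 8 of the 9 genes were tested (Ptf1a was too low) and 0 had a Benjamini-Hochberg adjusted p under 0.05, a threshold that 0.0227% of all tested rows passed. The log2 fold change was 0.25 with SE 0.04 for Tfap2b (limma, Benjamini-Hochberg adjusted p = 0.196), 0.31 with SE 0.09 for Tfap2a (0.505) and 0.26 with SE 0.09 for Tfap2c (0.538). Unadjusted p lay under 0.05 for these 3 genes, as for 7.88% of all tested rows. Tfap2e had 0.43 with SE 0.20 (limma adjusted p = 0.656), and this value was 0.19 without control replicate 1. The 95% confidence intervals were 0.16 to 0.35 for Tfap2b, 0.09 to 0.53 for Tfap2a and 0.06 to 0.46 for Tfap2c. For Tfap2e the interval ran from -0.03 to 0.88 and for Tfap2d, with a log2 fold change of 0.07, from -0.17 to 0.32. Barhl2 had -0.15 (interval -0.33 to 0.04), Neurod2 -0.13 (-0.34 to 0.07) and Ebf1 0.0011 (-0.18 to 0.19). Ebf1 changed sign with quantile normalization and without single libraries, at sizes near 0. The limma adjusted p of Tfap2d, Barhl2, Neurod2 and Ebf1 was 0.728 to 0.997.

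All 5 AP-2 genes had a log2 fold change above 0, and 4 of them had higher values in every DKO library than in any control library, as did 6.96% of all tested rows. None of the 9 had the reverse separation, found in 6.95% of rows. Because these genes were chosen with this contrast in view, nothing is read from that count. The count of 4 AP-2 genes held with median-of-ratios scaling, with quantile normalization and with the short RNA rows removed.

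**Figure D2:**
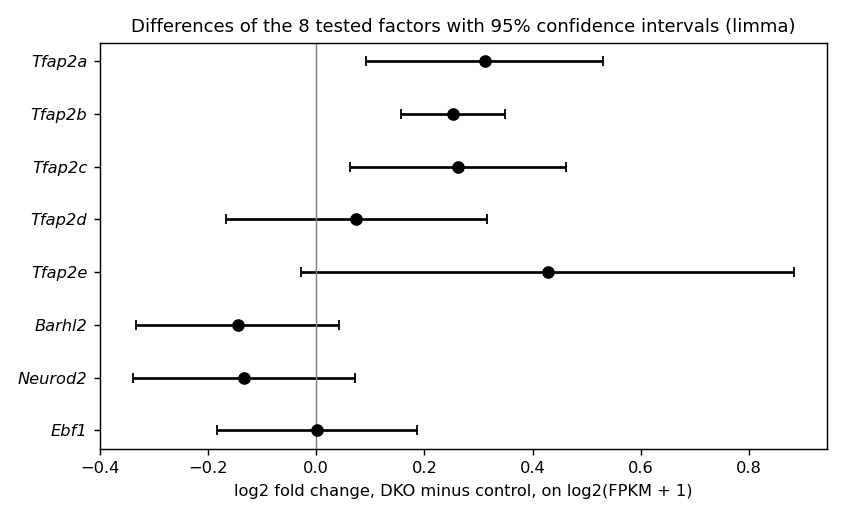
Log2 fold change (DKO minus control, on log2(FPKM + 1)) of the 8 tested genes, with 95% confidence intervals from limma. The intervals of Tfap2a, Tfap2b and Tfap2c lie above 0, unadjusted for the number of rows tested, and those of the other 5 genes include 0.

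**Figure D3:**
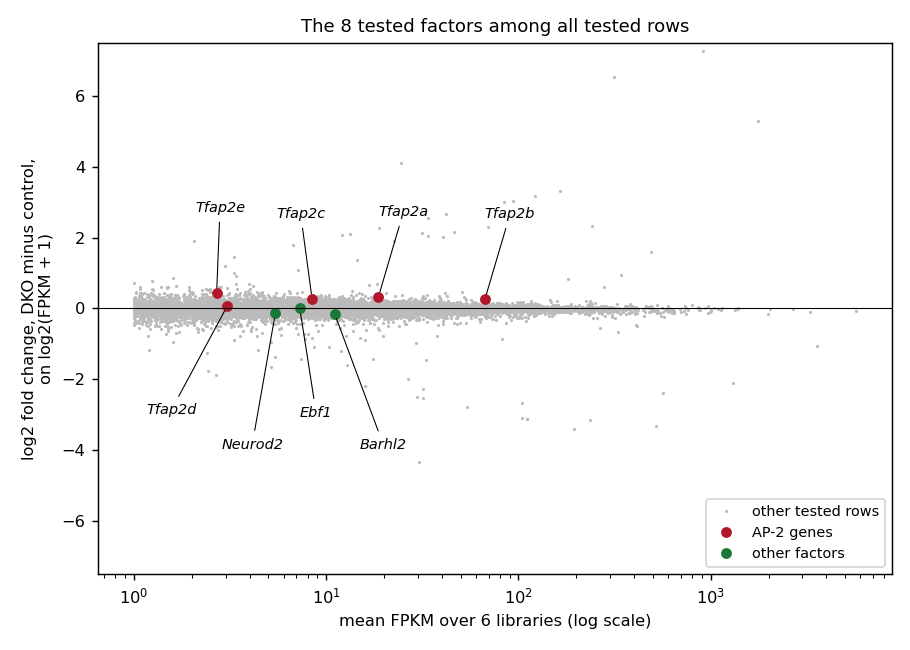
Mean FPKM over the 6 libraries (log axis) against the log2 fold change of all 13215 tested rows (grey), with the AP-2 genes in red and Barhl2, Neurod2 and Ebf1 in green. The AP-2 genes sit on or above the zero line within the cloud of other rows, at 0.07 to 0.43.

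Genes whose values ran most alike with the 2 leading AP-2 genes were found by Pearson's r on log2(FPKM + 1) over the 6 libraries. For Tfap2b they included Dkk3 (r = 0.99) and Olfm3 (0.99), out of 13214 rows of which 188 had r above 0.9. For Tfap2a they were Kirrel3 (r = 0.99), Klhl3 (0.98) and Gas7 (0.98), with 148 rows above 0.9. Olfm3, an olfactomedin-domain protein gene, measured 7.43 ± 0.316 FPKM in DKO and 5.91 ± 0.194 FPKM in control (SD, n = 3 each). Dkk3, a secreted glycoprotein, is 1 of the 3 rows called over the whole table. All of these r rest on the same 6 libraries in 2 groups and carry no test. Among the AP-2 genes themselves r was highest for Tfap2a with Tfap2e (0.92) and lower for Tfap2a with Tfap2b (0.80) and Tfap2b with Tfap2d (0.29), again over 6 libraries. Both Tfap2a and Tfap2e were lowest in control replicate 1, at 14.5 and 1.23 FPKM. Their r without that library was not computed.

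Genes for partners of AP-2 proteins were measured as well. Of 9 cofactors and modifiers 8 were tested, 5 above and 3 below 0 with a median log2 fold change of 0.0082 (-0.0016 over all tested rows). Limma called 0, and 0 had an unadjusted p under 0.05, against 7.88% of all tested rows. The CITED proteins bring the acetyltransferases CBP and p300 to AP-2. Cited2 measured 69.3 ± 10.9 in DKO and 76.5 ± 7.99 FPKM in control, Cited1 6.21 ± 0.822 and 5.12 ± 1.34 FPKM (SD, n = 3 each), and Cited4 lay at 0.527 to 1.24 FPKM over the 6 libraries, too low to be tested. The acetyltransferase genes Crebbp and Ep300 had log2 fold changes of 0.0066 and 0.0098. Kctd1 and Kctd15, whose proteins hold AP-2 activity down, measured 14.2 ± 0.217 against 12.6 ± 2.02 and 32.1 ± 0.840 against 30.8 ± 2.67 FPKM (SD, n = 3 each). Wwox, whose WW-domain protein binds AP-2, lay at 7.87 to 10.1 FPKM. Every one of the 9 had overlapping groups. Of all tested rows 6.96% were separated with DKO higher and 6.95% with DKO lower, so nothing is read from this count in 9 genes.

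The partners of PTF1A and of the other bHLH factors were present although Ptf1a was not. Rbpj, which joins PTF1A in its trimeric complex, measured 11.9 ± 0.543 in DKO and 11.9 ± 1.03 FPKM in control (SD, n = 3 each), while Rbpjl, its pancreatic relative, lay at 0 to 0.0613 FPKM. Of 8 tested E proteins, Rbpj partners and Id inhibitors, 3 were above and 5 below 0 (median log2 fold change -0.07). Limma called 0, and 1 had an unadjusted p under 0.05, against 7.88% of all tested rows. That gene was Id1, an inhibitor of bHLH dimers, at 18.7 ± 0.256 in DKO against 21.9 ± 2.84 FPKM in control (SD, n = 3 each), with a Benjamini-Hochberg adjusted p = 0.604 from limma. Tcf3, an E protein, measured 13.5 ± 0.942 against 15.1 ± 0.292 FPKM (SD, n = 3 each) without overlap. Tcf12 and Id3 had overlapping groups, with log2 fold changes of -0.09 and -0.13.

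Other transcription factors of amacrine cells lay on both sides. Of 27 listed, 22 were tested, 14 above and 8 below 0, with a median log2 fold change of 0.03. Limma called 0, and 8 had an unadjusted p under 0.05, 5 of them higher in DKO and 3 lower, against 7.88% of all tested rows. This list too was chosen with earlier results known, and nothing is read from the count. Eomes, a T-box factor of ganglion and amacrine cells, measured 5.45 ± 0.481 against 3.86 ± 0.181 FPKM (SD, n = 3 each; log2 fold change 0.41). Meis2 measured 32.8 ± 0.679 against 28.2 ± 1.45 and Lhx9 5.52 ± 0.677 against 3.80 ± 0.545 FPKM (SD, n = 3 each). Prdm13, a zinc-finger factor that acts downstream of PTF1A, went the other way from the AP-2 genes, at 9.63, 9.36 and 8.44 FPKM in the DKO libraries and 11.5, 10.7 and 11.5 FPKM in the control libraries. On the log2 scale it had -0.27 with SE 0.07, and limma gave a Benjamini-Hochberg adjusted p = 0.427. The ratio of Tfap2b to Prdm13 was 7.31, 7.92 and 8.75 in DKO and 5.32, 5.67 and 5.31 in control. Both genes were separated by label, in opposite directions, so their ratio had to separate and nothing is read from it. Foxn4, which acts before Ptf1a in precursors, lay at 0 to 0.0998 FPKM. Ebf3, a relative of Ebf1, lay at 15.0 to 15.4 FPKM in all 6 libraries, above Ebf1 in each.

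The markers of amacrine classes also lay on both sides. Of 25 tested, 13 were above and 12 below 0, with a median log2 fold change of 0.02. Limma called 0, and 12 had an unadjusted p under 0.05, 7 higher in DKO and 5 lower, against 7.88% of all tested rows. The list was chosen with earlier results of these data known, so nothing is read from that count. Gad1, a GABA-synthesizing enzyme, measured 122 ± 1.53 against 109.5 ± 2.56 FPKM (SD, n = 3 each; log2 fold change 0.16). The calcium-binding protein genes Calb2 and Calb1 lay below 0, with Calb2 at 286 ± 6.53 against 327 ± 13.6 FPKM and Calb1 at 26.6 ± 0.401 against 33.8 ± 3.09 FPKM (SD, n = 3 each), and none of their values overlapped. The ratio of Tfap2b to Gad1, 0.595 ± 0.0242 in DKO and 0.556 ± 0.0123 in control (SD, n = 3 each), overlapped between the groups. Set against the geometric mean of the 25 tested amacrine class markers (taken on FPKM + 1, less 1), Tfap2b had a ratio of 4.06 ± 0.143 in DKO and 3.35 ± 0.217 in control (SD, n = 3 each), without overlap. Tfap2b was chosen with its difference known, so the separation of this ratio is a description only. In bulk RNA, more cells of a type and more of a transcript per cell cannot be told apart.

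**Figure D4:**
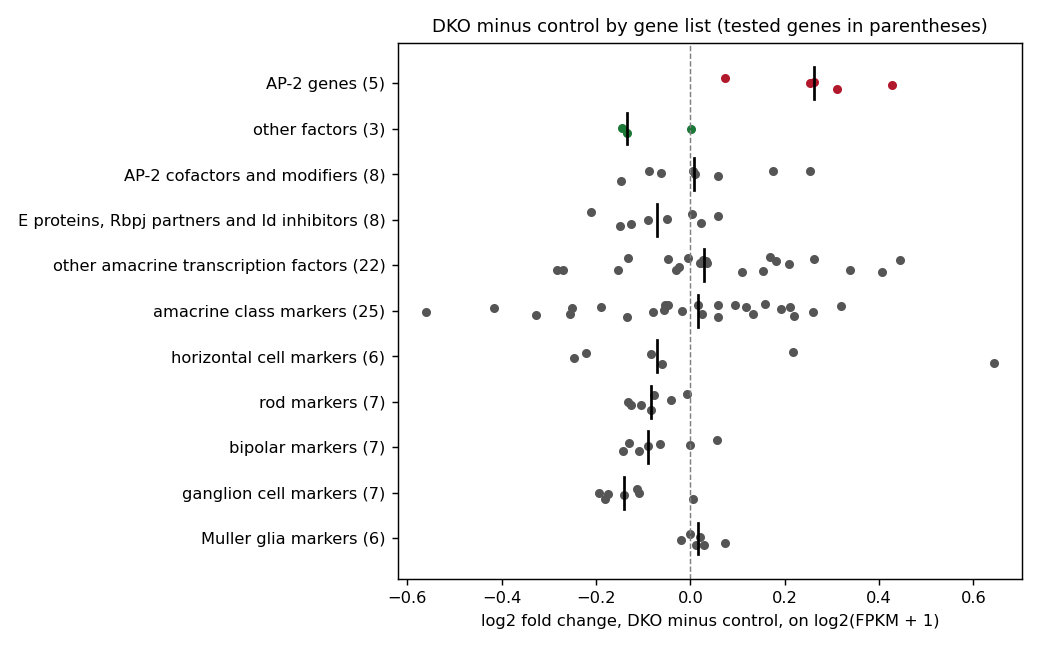
Log2 fold change (DKO minus control, on log2(FPKM + 1)) of every tested gene of the AP-2 family (red), the other 3 tested factors (green) and 9 related lists (grey), with the list's median as a black line and the median of all tested rows as a dashed line. The AP-2 genes lie at 0.07 to 0.43, while the list medians lie between -0.14 and 0.03.

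Genes of neighbouring cell classes were measured alongside. In horizontal cells, which also use Tfap2a and Tfap2b, Lhx1 measured 3.81 ± 0.254 in DKO against 4.72 ± 0.280 FPKM in control (SD, n = 3 each), without overlap. Of the 6 horizontal cell markers tested, 2 were above and 4 below 0. Limma called 0, and 2 had an unadjusted p under 0.05, Lhx1 among them, against 7.88% of all tested rows. Onecut1 had 0.22 and Onecut3 -0.22. All 7 rod markers (median log2 fold change -0.08), 5 of 7 bipolar markers (-0.09) and 6 of 7 ganglion cell markers (-0.14) were below 0, with limma calls at 0 and an unadjusted p under 0.05 for 1 (Nrl), 1 (Trpm1) and 2 (Pou4f1 and Slc17a6) of them. The summed FPKM of the bipolar markers was 561 to 603 in DKO and 607 to 618 in control, without overlap. Of the 7 ganglion cell markers 4 (Pou4f1, Pou4f2, Slc17a6 and Thy1) had lower values in every DKO library than in any control library, as had 6.95% of all tested rows. The sum of the 7 (387 to 403 against 400.0 to 418 FPKM) overlapped, and the most abundant of them, Sncg, lay at 209 to 227 FPKM with overlapping groups. The 6 Müller glia markers had a median of 0.02 with 4 above and 2 below 0, limma called 0, and 0 had an unadjusted p under 0.05. The part of these other classes in the AP-2 values was not tested.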

How the data were processed

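RNA from 6 samples labelled mouse brain was made into stranded mRNA libraries, per the labels' protocols. The authors deposited 1 table of FPKM values per library, per the file headers, whose DKO columns carry the letters CKO. Per the submitters' processing notes, TopHat2 2.1.1, Bowtie2, Cuffdiff 2.2.1 and mm10 were used; annotation, filters, scaling: not given in the sources used here.

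Tests were run on the 13215 rows whose mean over 6 libraries reached 1 FPKM, in limma 3.58.1 (R 4.3.3; lmFit, eBayes with a trend) as log2(FPKM + 1), 2-sided, Benjamini-Hochberg adjustment over all tested rows, threshold 0.05. Such fold changes understate changes of low genes. The fit was tested on simulated data with 200 changed genes. FPKM give no read totals, so precision comes from the spread between 3 libraries; relative depth is the most frequent ratio of rows under 0.3 FPKM.

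The 9 genes, the 14 lists and the tests were chosen with earlier results of these data known. Text names all 9, every AP-2 cofactor, up to 4 tested genes of smallest p from lists, and the 3 rows most alike with Tfap2b and Tfap2a, except some genes that are not reported here. Foxn4, Rbpj, Rbpjl, Ebf3 and marker genes named for their levels, and the ratios, were chosen after their values were seen. Ca8 has no row. Lists of pigment epithelium (2 tested of 6), cortex (2 of 7), epithelium (1 of 8) and cerebellum and midbrain (1 of 8) had 0 calls in limma, also at unadjusted p under 0.05. Promoters came from RefSeq (GRCm38.p6), 3′ UTRs from GENCODE M21. Python 3.11.15, pandas 2.3.3, NumPy 2.4.6 and matplotlib 3.10.9 were used.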

Additional observations from a re-analysis of the deposited data

How the results depend on the processing

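The fit was repeated with quantile normalization or median-of-ratios scaling, without a filter or with a minimum mean of 5 FPKM, with pseudocounts of 0.1 and 0.5, a replicate block, eBayes without a trend or robust, arrayWeights, short RNA rows left out, and without each library; leaving out short RNA rows with libraries scaled to the same sum, and the counts of separated AP-2 genes, were added after seeing the data. In these 18 alternatives 0 of the 9 genes and 0 list genes were called by limma. The count of all called rows, 3, was 1 without a trend in eBayes, 1 to 4 without single libraries (1 without control replicate 2), and 2 to 4 elsewhere; the cause was not tested. The log2 fold change lay at 0.24 to 0.28 for Tfap2b, 0.22 to 0.41 for Tfap2a, 0.20 to 0.34 for Tfap2c and 0.19 to 0.60 for Tfap2e. Tfap2d lay at 0.01 to 0.14, Barhl2 at -0.19 to -0.09 and Neurod2 at -0.19 to -0.08. Ebf1, which reached 0.0562 without DKO replicate 1, turned to -0.0038 with quantile normalization, -0.0014 without DKO replicate 2, -0.0515 without DKO replicate 3 and -0.0058 without control replicate 1. The number of separated AP-2 genes was 4 in 8 of 9 alternatives and 5 without DKO replicate 3, when Tfap2d joined. Leaving out a library cannot undo a separation, so the count could only stay or rise in those alternatives. Nothing is read from its stability there.

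Same-numbered libraries deviated together at r = 0.07, 0.0063 and 0.10, and differently numbered ones at -0.12 to 0.04. These values do not settle whether the numbers pair the libraries. The main fit took the libraries as unpaired, and a fit with a replicate block is given beside it. The replicate block left 2 rows called and 0 of the 9 genes (Tfap2b adjusted p = 0.301 in limma with Benjamini-Hochberg adjustment, lowest 0.111 over its alternatives).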
